A study of Rattus norvegicus with 6 samples.

Results

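The miR-199a/214 cluster was followed on 6 rat miRNA arrays as 4 of the 758 miRNAs measured, namely all arms whose array name starts with rno-miR-199a or rno-miR-214. These 4 miRNAs (miR-199a-5p, miR-199a-3p, miR-214-3p and miR-214-5p) had 8 of the 1806 probes, 2 per miRNA, and each probe was printed in 8 spots. The first 3 were detected on all 6 arrays, and miR-214-5p was detected on 0. The choice used names only and no measured value, although earlier results of these data were known when the cluster was picked.

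The arrays held total RNA of male Sprague–Dawley rats, with no age given in the sources used here. Neither group had a transgene, or a drug other than the pentobarbital used for anaesthesia and euthanasia. In the model group (3 arrays, 1 rat each) the left anterior descending coronary artery was tied to cause a myocardial infarction. In the control group (3 arrays, 1 rat each) the thread was passed and not tied, and both groups were examined 4 weeks after surgery. The labels place the model tissue at the margin of the infarct and call the control tissue only myocardium, so the ligation and the place of sampling cannot be told apart. Each sample was a piece of tissue with many cell types, and fewer cells of a type and less RNA per cell cannot be told apart in it.

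A miRNA is a short RNA cut from a hairpin precursor, and it pairs with messenger RNAs mainly through its seed, bases 2 to 8, to lower their output. The 2 sides of a hairpin give the 5p and the 3p arm, which have different seeds and so different targets. In mouse and human the miR-199a and miR-214 hairpins come from a long noncoding transcript, DNM3OS, that runs antisense within the dynamin 3 gene and is prominent in mesenchymal cells and fibroblasts. In the heart, miR-214-3p is known to limit calcium overload through the sodium/calcium exchanger, miR-199a-3p to promote cardiomyocyte proliferation when given in excess, and miR-199a-5p to target Hif1a and Sirt1 in cardiomyocytes and caveolin-1 in lung fibroblasts.

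The mature sequences are shown because the arms of 1 hairpin, and the 3p arms of the neighbouring hairpins, are what the comparisons set side by side. They were taken from RefSeq (build GRCr8), which held a mature sequence for 4 of these 4 miRNAs and for 685 of the 758 on the array, and capitals mark the seed.
rno-miR-199a-5p: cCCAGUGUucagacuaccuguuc
rno-miR-199a-3p: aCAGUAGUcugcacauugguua
rno-miR-214-5p: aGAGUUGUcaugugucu
rno-miR-214-3p: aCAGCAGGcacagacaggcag

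In that build miR-199a-5p lay at chr13:77116255-77116277 and miR-199a-3p at chr13:77116294-77116315, both on the plus strand and both from Mir199a2. From Mir214, miR-214-5p lay at chr13:77121656-77121672 and miR-214-3p at chr13:77121713-77121733, again on the plus strand. Between the end of miR-199a-3p and the Mir214 hairpin lay 5329 bases and 0 annotated genes, and both precursors lay within the span of Dnm3, which is transcribed from the minus strand. The 4 seeds differed from each other, and 0 other mature miRNAs of the RefSeq table carried any of them. Of miRNAs the table gives no mature sequence for, rno-miR-761, known to share the seed of miR-214-3p, was on the array and was detected on 0 arrays. The 3p arms of the neighbouring hairpins began with the same 4 bases and were equal at 8 positions when aligned at the 5′ end. The probe sequences were not used here.

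All 6 arrays lay on 1 slide with 1 scan, with all control arrays and model array 1 in its row 1 and the remaining model arrays in its row 2. Between 206 and 222 miRNAs were detected per array, and 0 spots were saturated. The labelled tissue was checked by miRNAs of heart muscle cells. The signal of miR-1-3p was 6929 to 11740 in the controls and 5117 to 6417 in the model rats, while miR-208b-3p was detected on 0 arrays. A total signal here is the background-subtracted brightness summed over the probes of a miRNA that exceeded 3 times their error. For comparisons between groups the signals were scaled to the 75th percentile, per array, of 198 miRNAs that all 6 arrays detected, and put on the log2 scale. After this scaling the median log2 difference of those 198 miRNAs was -0.15 and not 0.

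All 3 detected members were higher in the infarcted hearts, by 3.87-fold for miR-199a-5p, 3.59-fold for miR-214-3p and 2.63-fold for miR-199a-3p after scaling. On the control arrays 1, 2 and 3 the total signal of miR-199a-5p, the 5p arm of its hairpin, was 39.0, 45.0 and 30.2. On the model arrays in the same order it was 164, 216 and 144. The groups did not overlap, and the lowest model array was 3.20 times the highest control array before any scaling.

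The signal of miR-199a-3p, the opposite arm and the brightest member, was 246, 305 and 191 in the control group. In the model group it was 722, 970.03 and 617. Again the groups did not overlap, with a ratio of 2.02 between the nearest arrays. The signal of miR-214-3p, from the neighbouring hairpin, was 114, 129 and 96.3 in the sham-operated rats, against 443, 603 and 406 after infarction. Its nearest arrays were 3.14-fold apart. For each of these members the order of the raw signals was the same, with control array 2 and model array 2 the brightest of their groups and control array 3 and model array 3 the dimmest.

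**Figure D1:**
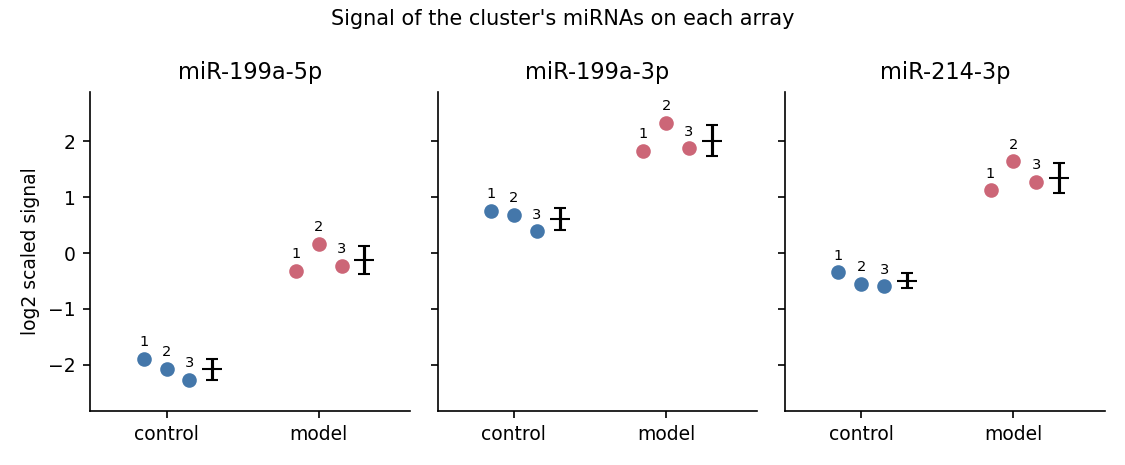
Log2 scaled signal of miR-199a-5p, miR-199a-3p and miR-214-3p on each of the 6 arrays (numbered points), with the mean ± SD of the 3 arrays of each group beside them. The model arrays lie above the control arrays in all 3 panels, with means of -0.13 against -2.08, 2.01 against 0.61 and 1.35 against -0.50.

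The difference between the groups was tested with limma over the 214 miRNAs that every array of 1 group or of both detected, with Benjamini-Hochberg adjustment over all of them. The log2 scaled signal of miR-199a-5p rose from -2.08 ± 0.19 in the controls to -0.13 ± 0.25 in the model rats (SD, n = 3 each), a log2 fold change of 1.95 (SE 0.16, limma adjusted p = 0.00147). That of miR-214-3p rose from -0.50 ± 0.13 to 1.35 ± 0.27, a log2 fold change of 1.84 (SE 0.16, limma adjusted p = 0.00147). That of miR-199a-3p rose from 0.61 ± 0.20 to 2.01 ± 0.28, a log2 fold change of 1.40 (SE 0.17, limma adjusted p = 0.00455). The order of the members changed with normexp correction, where the log2 signals of the probes of a miRNA were averaged and not summed. With an offset of 50 it gave 0.91 for miR-199a-5p, 1.47 for miR-214-3p and 1.27 for miR-199a-3p. Without an offset, a setting added later, it gave 1.62, 1.81 and 1.41 in the same order.

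Thus all 3 detected members passed the test as higher in the model group. Of the 214 miRNAs tested, 22.9% passed in either direction and 10.3% as higher. The groups did not overlap for these 3, with the model arrays above, which held for 16.4% of the miRNAs tested (47.2% when either direction was counted). The split of all calls into 22 higher and 27 lower depended on the scaling: it was 30 and 16 with centring on the median deviation, 23 and 16 with quantile normalization, 23 and 14 with the authors' values, 35 and 1 with the totals as deposited, and 19 and 47 when all miRNAs set the percentile. Without scaling limma called 19 as higher and 0 as lower, with 39 at an unadjusted p under 0.05 in either direction. By size of the log2 fold change, miR-199a-5p, miR-214-3p and miR-199a-3p ranked 4, 5 and 6 of the 214. When the median of the 198 miRNAs was taken as the zero point, their log2 fold changes were 2.10, 1.99 and 1.55. The limma p-values set the difference between the groups against the spread between the 3 rats of each group, drawn toward that of all miRNAs tested. With 1 array per rat this spread also holds the error of the array.

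Each model rat showed the rise. Against the mean of the control group, the log2 scaled signal of miR-199a-5p was higher by 1.77, 2.24 and 1.85 on model arrays 1, 2 and 3. For miR-214-3p these differences were 1.62, 2.14 and 1.77, and for miR-199a-3p they were 1.22, 1.72 and 1.26. Model array 2 was the highest for every detected member. Model array 1, the model array in the same row of the slide as the controls, had the smallest differences, and with the row as a block, the log2 fold changes equalled those of model array 1 with limma adjusted p of 0.0148, 0.0148 and 0.0421 for miR-199a-5p, miR-214-3p and miR-199a-3p.

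**Figure D2:**
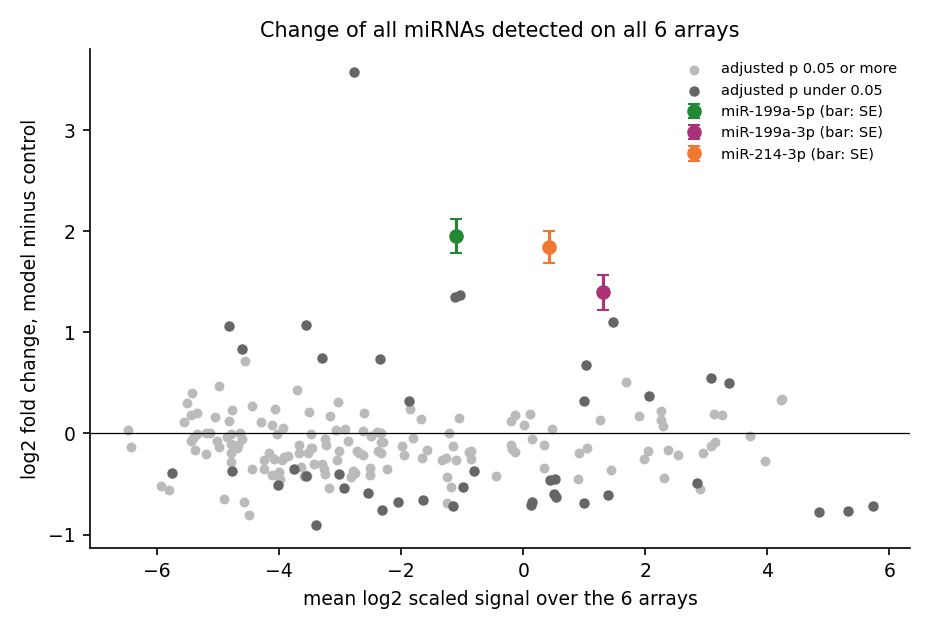
Log2 fold change (model minus control) of each of the 198 miRNAs detected on all 6 arrays against the mean log2 scaled signal over the arrays, with dark points for an adjusted p under 0.05 and coloured points with SE bars for the members of the cluster. The members, at 1.95, 1.84 and 1.40, rank 2, 3 and 4 of the 198 by fold change.

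The remaining arm, miR-214-5p, gave no signal that exceeded the error of its probes. Its first probe read between -0.514 and -0.00429 over the 6 arrays and its other probe between -0.357 and 0.275, where a signal of 2.17 to 2.87 would have been needed for detection. At this detection limit no level and no arm ratio could be given for miR-214 in either group. The hairpin of Mir214 faces that of Mir3120 on the opposite strand, with 106 of its 108 bases found in 1 run in the reverse complement of the Mir3120 hairpin. The miRNA from that strand, rno-miR-3120 (cACAGCAAguguagacaggca, chr13:77121672-77121692, minus strand), is shown because it comes from the stretch between the miR-214 arms, read the other way, and it was detected on 0 arrays.

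With the signals as deposited, the 2 probes of each detected member gave nearly the same change. For miR-199a-5p, probe 1 read 26.2 to 39.0 in the controls and 126 to 189 in the model rats, and the much dimmer probe 2 read 3.95 to 5.95 and 17.7 to 27.1. Their log2 fold changes were 1.96 (SE 0.16) and 1.89 (SE 0.16). These SE hold the spread between rats, which both probes share, and do not measure the error of the difference between the probes. With normexp correction and an offset of 50 the changes of the 2 probes lay far apart, with 1.40 (SE 0.099) for probe 1 and 0.43 (SE 0.089) for probe 2.

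For miR-214-3p, probe 1 read 66.0 to 89.7 in the controls and 277 to 413 in the model rats, and probe 2 read 30.3 to 39.5 and 129 to 190.3. The log2 fold changes were 1.83 (SE 0.15) and 1.87 (SE 0.15). For miR-199a-3p, probe 1 read 57.6 to 91.6 and 198 to 306, probe 2 read 133 to 213 and 419 to 664, and the log2 fold changes were 1.46 (SE 0.17) and 1.37 (SE 0.17). In limma over the 394 probes tested, 25.1% were called in either direction and 10.2% as higher, and all 6 probes of the detected members were among them, with adjusted p from 3.0e-04 to 0.00113. The probes of 1 miRNA bind the same RNA and are no replicates of the condition.

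Within an array, the log2 ratio of probe 2 to probe 1 differed between the groups by -0.086 for miR-199a-3p, -0.075 for miR-199a-5p and 0.037 for miR-214-3p. The groups did not overlap for miR-199a-3p (1.13 to 1.22 in the controls, 1.08 to 1.12 in the model rats). They did not overlap for miR-199a-5p either (-2.78 to -2.71 and -2.84 to -2.80), and they did for miR-214-3p. The exact permutation p of these 3 differences (two-sided, 3 arrays against 3) was 0.10, 0.10 and 0.20, or 0.15, 0.15 and 0.20 after adjustment over the 3, and a p under 0.10 is not possible with this design.

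**Figure D3:**
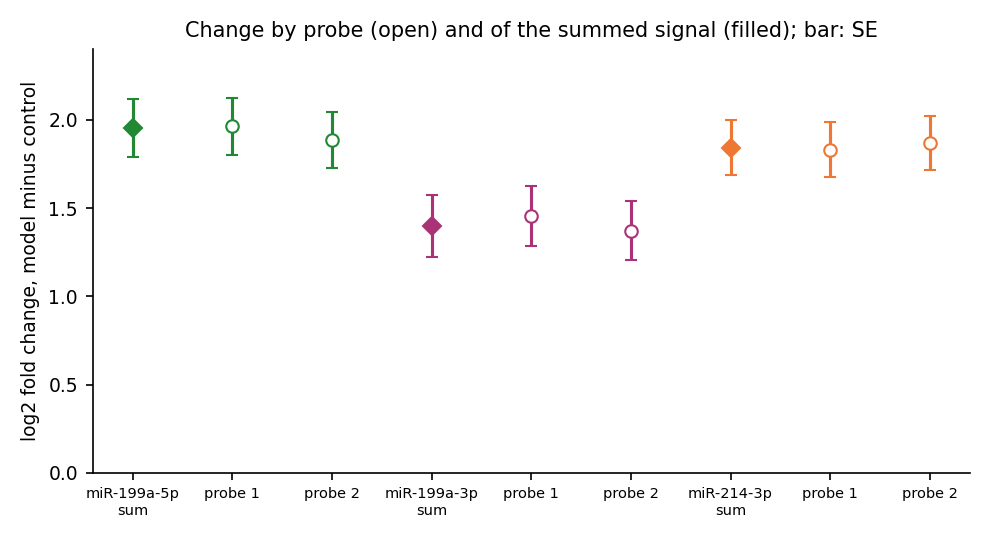
Log2 fold change (model minus control) with its SE for the summed signal of each detected member (filled) and for each of its probes (open). Probes of 1 miRNA lie close together, at 1.96 and 1.89 for miR-199a-5p, 1.46 and 1.37 for miR-199a-3p, and 1.83 and 1.87 for miR-214-3p.

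The spots of the member probes were also even. The coefficient of variation over the 8 spots of a probe had a median of 3.55% for the members (range 1.49% to 23.9%, 36 values over 6 probes and 6 arrays), against a median of 8.40% over all 2399 values of detected probes. These sets were not matched for brightness, and whether the lower median is particular to the members was not tested. The uneven ones were those of miR-199a-5p probe 2 on the control arrays, at 14.3% to 23.9%, where its signal was 4.16 to 5.28 times its error and so not far above the limit of 3. That probe held 12.3% to 13.2% of the total signal of miR-199a-5p, so the total rested mainly on probe 1.

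The arms of miR-199a did not rise equally. The 5p signal divided by the 3p signal was 0.159, 0.148 and 0.158 on control arrays 1, 2 and 3, against 0.227, 0.222 and 0.233 on model arrays 1, 2 and 3. All model arrays were above all control arrays, and the spread within each group was small beside the gap between them. Ratios between probes of 1 miRNA also separated the groups without overlap, by the smaller log2 differences of -0.086 and -0.075 given above. This quotient compares brightness of different probes and is no ratio of molecules, so only its change between groups was read, and it is not affected by any scaling of whole arrays.

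On the log2 scale the ratio moved from -2.69 ± 0.059 in the controls to -2.14 ± 0.034 in the model rats (SD, n = 3 each), a change of 0.56 (SE 0.068) toward the 5p arm. The fold change of the 5p arm was therefore 1.47 times that of the 3p arm. Of 281 miRNAs with both arms on the array, 24 had both detected on all 6 arrays, and limma over these 24 pairs gave an adjusted p of 0.00460 for miR-199a, the lowest of the 24. The adjusted p was under 0.05 for 8.33% of the pairs, and the groups did not overlap for 20.8%. The exact permutation test of the same 3 against 3 values gave p = 0.10, the smallest it allows. By size the change ranked 4 of the 24.

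The other pair called was let-7b, a member of the let-7 family that holds back growth genes, with log2 ratios of 7.19, 7.52 and 7.31 in the controls, against 8.17, 8.03 and 7.75 in the model rats. Its change was 0.64 (SE 0.14, limma adjusted p = 0.0477), and its 3p arm was dim, with signals of 13.1 to 17.4 over the 6 arrays. The smallest change of the 24 pairs was that of miR-140, whose arms rose by 1.37 (5p) and 1.35 (3p) on the log2 scale. Their ratio differed by 0.016 (SE 0.095, limma adjusted p = 0.886).

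The shift between the miR-199a arms was seen with every choice of probe. The change of the log2 ratio was 0.51 and 0.59 with probe 1 of the 5p arm over probes 1 and 2 of the 3p arm, and 0.43 and 0.52 with probe 2. In all 4 combinations the groups did not overlap, though the combinations share probes and arrays. The shift depended on the processing. With normexp correction, an offset of 50 and log2 signals averaged over probes, the change was -0.36 (limma adjusted p = 0.0863). By probe, the log2 fold changes in that setting were 1.40 and 0.43 for the 5p arm and 1.24 and 1.30 for the 3p arm. Without an offset the change of the ratio was 0.21 (limma adjusted p = 0.147, a setting added later). With quantile normalization it was 0.50 (adjusted p = 0.0620) and with the authors' normalized values 0.45 (adjusted p = 0.0656), and over all 20 alternatives the adjusted p was between 5.8e-04 and 0.147.

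**Figure D4:**
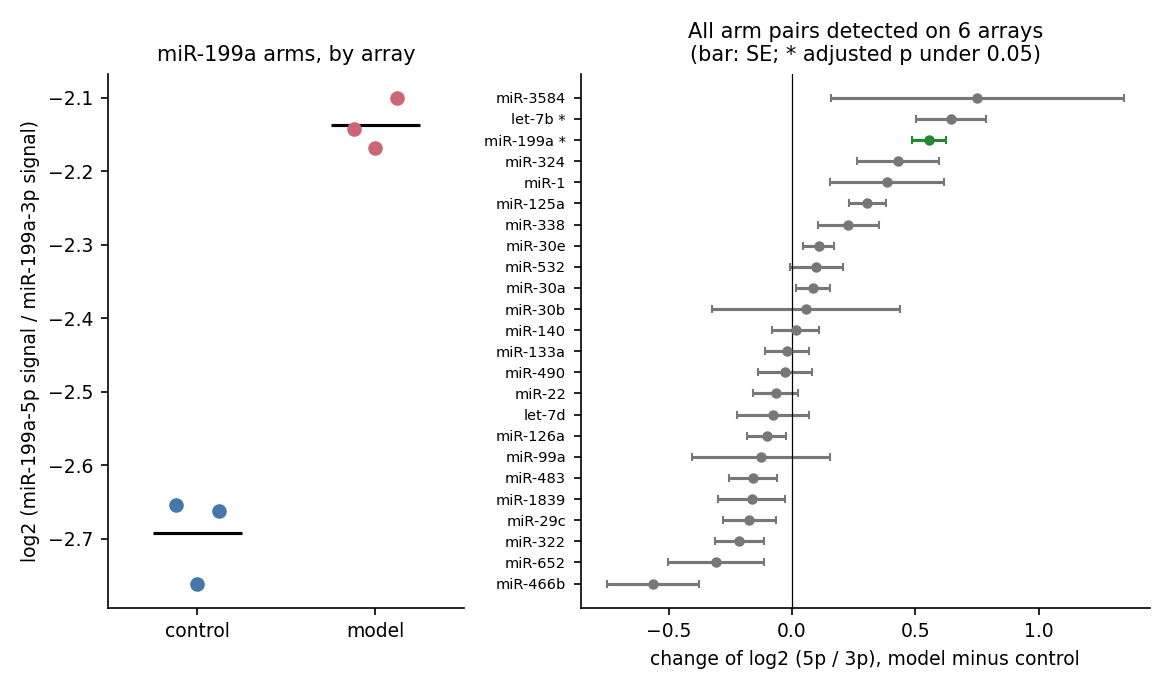
Left, log2 of the miR-199a-5p signal over the miR-199a-3p signal on each array, with a line at the mean of each group; right, the change of the same ratio (model minus control, bar = SE) for the 24 arm pairs detected on all 6 arrays. The miR-199a ratio moved from -2.69 to -2.14, and miR-199a and let-7b were the pairs with an adjusted p under 0.05.

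Across the neighbouring hairpins, the fold change of miR-214-3p lay between those of the miR-199a arms. The ratio of miR-214-3p to miR-199a-5p was 2.93, 2.87 and 3.19 in the controls, against 2.71, 2.79 and 2.82 in the model rats, a log2 change of -0.11 from 1.58 ± 0.081 to 1.47 ± 0.032 (SD, n = 3 each). The ratio of miR-214-3p to miR-199a-3p was 0.465, 0.424 and 0.505 in the controls, against 0.613, 0.622 and 0.659 in the model rats, a log2 change of 0.45 from -1.11 ± 0.13 to -0.66 ± 0.055. In both ratios the groups did not overlap. The fold change of miR-214-3p was thus 1.36 times that of miR-199a-3p and 0.927 times that of miR-199a-5p. Over the 3 pairs of members the exact permutation p was 0.10 each and 0.10 after adjustment, the smallest this design can give. Which arm miR-214-3p was closer to depended on the processing. With quantile normalization the ratio to miR-199a-5p changed by -0.28 and that to miR-199a-3p by 0.22, and with the authors' normalized values by -0.30 and 0.15. With normexp correction the changes were 0.56 and 0.20, and with normexp without an offset 0.19 and 0.40, so that the sign of the ratio to miR-199a-5p turned.

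The members also moved together from rat to rat within a group. As log2 deviations from the group mean on control arrays 1, 2 and 3, miR-199a-5p had 0.18, 0.0069 and -0.19, miR-199a-3p had 0.15, 0.075 and -0.22, and miR-214-3p had 0.15, -0.052 and -0.099. On model arrays 1, 2 and 3 the deviations were -0.19, 0.29 and -0.10 for miR-199a-5p, -0.18, 0.32 and -0.14 for miR-199a-3p, and -0.22, 0.30 and -0.075 for miR-214-3p. Control array 1 and model array 2 were thus the highest of their groups, and control array 3 and model array 1 the lowest, for each of the 3.

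With 3 arrays per group this is a description only. The same order in the control group was found for 29 of the 198 miRNAs detected on all arrays (14.6%), the members included, and the same order in the model group for 53 (26.8%). Before scaling, the members' order was shared by 57.1% of the 198 miRNAs for the control arrays and 28.8% for the model arrays. The root mean square difference between the 6 deviations of miR-199a-5p and miR-199a-3p was 0.040 on the log2 scale, and of 197 miRNAs the 3p arm was the nearest to the 5p arm. Between miR-199a-5p and miR-214-3p it was 0.050, the nearest of 197 for miR-214-3p, and between miR-199a-3p and miR-214-3p it was 0.079, where miR-214-3p ranked 8 for miR-199a-3p and miR-199a-3p ranked 7 for miR-214-3p. The medians over all 197 were 0.20 to 0.23. For miR-199a-3p the nearest was miR-497-5p at 0.034, a miRNA of another locus named here after its value was seen.

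**Figure D5:**
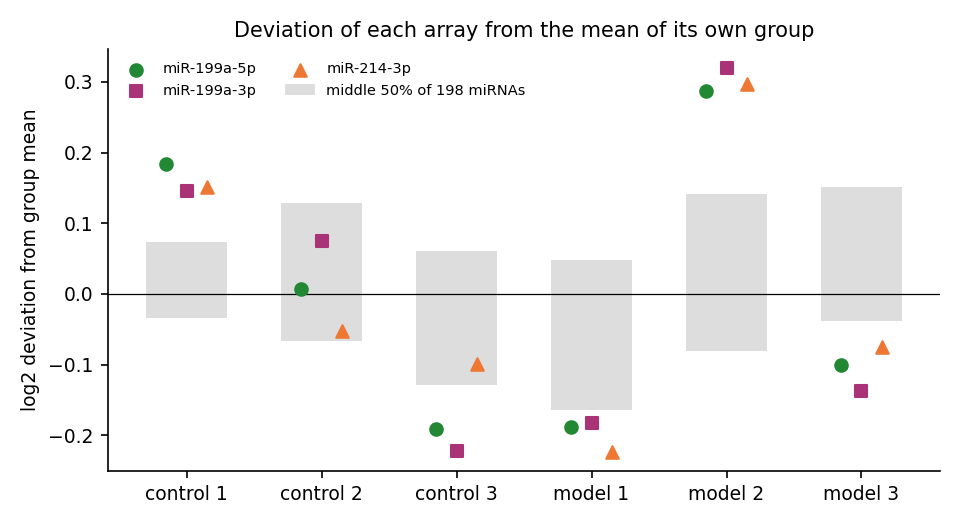
Log2 deviation of each array from the mean of its own group for the detected members of the cluster (symbols), with grey bars for the middle 50% of the 198 miRNAs detected on all arrays. The symbols of the members lie highest on model array 2, at 0.29 to 0.32, and differ in sign on control array 2, at -0.052 to 0.075.

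Outside the cluster, the 5 profiles nearest to the mean of the members over the 6 arrays were sought among 195 miRNAs detected on all arrays, by the root mean square difference of centred log2 signals. They were miR-140-5p at 0.206 and miR-140-3p at 0.221, both arms of a miRNA of cartilage and other mesenchymal cells. Next were miR-21-5p at 0.321, a miRNA abundant in activated cardiac fibroblasts, miR-221-3p at 0.354, known from vascular smooth muscle and fibroblasts, and miR-155-5p at 0.403, a miRNA of activated macrophages and lymphocytes. The median of the 195 was 0.978, and the members themselves lay at 0.070 to 0.171 from their own mean. The likeness is set mainly by the difference between the groups, since the log2 fold changes of these 5 were 1.37, 1.35, 1.10, 1.07 and 1.07.

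Other miRNAs linked to fibroblasts and matrix were taken as a list of 11, all detected on all 6 arrays. The list was drawn up with earlier results of these data known, so its counts are a description and no independent test. Of these, 6 passed limma as higher in the model group and 0 as lower, beside 10.3% called higher among all 214, and the median log2 fold change of the list was 0.55 against -0.14 for all 214. The 6 were miR-31a-5p (3.57), miR-140-5p and miR-140-3p (1.37 and 1.35), miR-21-5p (1.10), miR-152-3p (0.73), which targets DNA methyltransferase 1, and miR-125b-5p (0.55), known to act in the conversion of fibroblasts to myofibroblasts. The miR-29 family, which represses collagens, gave -0.13, -0.17 and -0.36 for miR-29a-3p, miR-29b-3p and miR-29c-3p with limma adjusted p of 0.486, 0.257 and 0.102. The smooth muscle miRNAs miR-143-3p and miR-145-5p gave -0.17 each and did not pass. The summed scaled signal of the 11 was 28.1 to 34.5 in the controls and 34.0 to 39.2 in the model rats, with overlap. Before scaling these sums overlapped as well, at 4094 to 6517 and 5994 to 7551.

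After scaling, markers of some other cell types differed between the groups as well. Of 6 heart muscle miRNAs, 5 were tested and 3 were lower in the model group, namely miR-1-3p (log2 fold change -0.76), miR-133b-3p (-0.72) and miR-133a-3p (-0.68), where 12.6% of all miRNAs tested were called lower. Without scaling of the arrays 0 miRNAs, and so none of these, were called lower. The values of miR-208a-3p and miR-499-5p were -0.87 and -0.69 (limma adjusted p = 0.0988 and 0.0929), and miR-208a-3p was not detected on model array 2. The summed scaled signal of the heart muscle miRNAs was 114 to 138 in the controls and 60.9 to 85.1 in the model rats, with no overlap. Before scaling these sums did not overlap either, at 16568 to 26038 and 11750 to 15850.5. The 2 endothelial miRNAs, miR-126a-3p and miR-126a-5p, were both lower (-0.49 and -0.59), with summed scaled signals of 8.16 to 9.17 and 5.98 to 6.66. Before scaling the endothelial sums overlapped, at 1187 to 1733 in the controls and 1120 to 1216 in the model rats.

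Of 5 leukocyte miRNAs, miR-142-5p was detected on 0 arrays, miR-155-5p was higher (1.07), miR-150-5p was lower (-0.60), and miR-142-3p and miR-223-3p did not pass (-0.073 and 0.15). Their summed scaled signal was 2.11 to 2.39 in the controls and 1.52 to 1.85 in the model rats. Before scaling the leukocyte sums overlapped, at 306 to 453 and 310 to 322. Of 3 red blood cell miRNAs, miR-144-3p was detected on 0 arrays, miR-486 was lower (-0.68) and miR-451-5p did not pass (-0.53), with sums of 1.79 to 2.10 and 1.13 to 1.43. Before scaling the red blood cell sums did not overlap either, at 283 to 339 and 217 to 243. The 2 smooth muscle miRNAs summed to 5.04 to 6.72 and 4.74 to 5.46, with overlap. The part of these cell types in the change of the miR-199a/214 cluster was not tested.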

How the data were processed

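Total RNA of 3 model and 3 control rats was measured on 6 single-colour Agilent arrays, grouped by the sample labels. The authors deposited the spot-level intensity output of Agilent Feature Extraction 10.7.1.1 (per the file headers), background-subtracted and not scaled between arrays, and normalized log2 values of the same arrays, which the authors made by a method not given in the sources used here. The total of a miRNA was rebuilt as the sum of its probe signals over 3 times their error, because the deposited total of some other miRNAs holds more than their own probes. For the 3 detected members both totals were equal within a relative tolerance of 0.0001 on 6 of 6 arrays. Each array was divided by its 75th percentile over 198 miRNAs, floored at the highest of the arrays' lowest detected signals (log2 of -6.50), and transformed to log2. Groups were compared with limma 3.58.1 (lmFit, eBayes) in R 4.3.3 at a Benjamini-Hochberg adjusted p of 0.05, over 214 miRNAs, 394 probes or 24 arm pairs, and single ratios with exact permutation tests. Precision was limited by the number of arrays and by the detection limit (lowest detected totals 1.16 to 1.60). Python 3.11.15, pandas 2.3.3, numpy 2.4.6 and matplotlib 3.10.9 were used.

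The members, the lists and the tests were chosen with earlier results of these data known. The miRNAs named are the members, the 5 nearest profiles outside them, the lists, any miRNA with a member's seed, and arm pairs past the threshold. The miRNAs miR-3120 and miR-497-5p and the arm pair of miR-140 were named outside this rule. Alternatives were other totals, background corrections, scalings and filters, the authors' values, the methods' t-test, an intensity trend, a replicate block, the row of the slide and leaving out each array. Normexp without an offset and the brightest probe of each miRNA were added after the data were seen. The qRT-PCR and other assays were not analysed here.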

Additional observations from a re-analysis of the deposited data

How the results depend on the processing

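For miR-199a-5p and miR-214-3p the rise held in direction and stayed under an adjusted p of 0.05 in all 22 alternatives (limma in 21, the methods' t-test in 1), with log2 fold changes of 0.91 to 2.29 and 1.47 to 2.18. For miR-199a-3p it did in 21 of 22 (1.22 to 1.74), the exception being no detection filter (1.40, adjusted p = 0.0828), which tests 758 miRNAs. Leaving out 1 array gave 1.80 to 2.02, 1.69 to 1.93 and 1.23 to 1.47 in the same order. The median log2 difference of the 198 miRNAs was lowest, -0.27, when all miRNAs set the 75th percentile and highest, 0.15, with deposited totals.

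The miR-199a arm ratio changed by 0.52 to 0.57 when 1 array was left out, by -0.36 with normexp, 0.21 with normexp without an offset, 0.50 with quantile normalization and 0.45 with the authors' values. The miR-214-3p to miR-199a-5p ratio changed by 0.56 and 0.19 with the first pair of these. The cause of these differences was not tested.

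The number of miRNAs called (49) was 19 without scaling, 9 without the filter, 26 by the methods' t-test, 29 with the slide row as a block and 14 to 39 without 1 array (14 without control array 1, 26 and 27 without control arrays 2 and 3). The arm pairs called (2) were 5 with deposited totals, 4 without scaling, 1 by the t-test, with an intensity trend and with normexp without an offset, 1 to 2 without 1 array (1 without control array 1, model array 1 or model array 2), and 0 in limma with normexp, quantile and authors' values, where 5, 3 and 5 had an unadjusted p under 0.05. The probes called (99) were 42 without scaling, 49 by the t-test, 57 with the slide row, 51 to 85 without 1 array (51 and 62 without control arrays 1 and 3), and 0 in limma without the filter, where 137 of 1806 had an unadjusted p under 0.05 and the member probes an adjusted p of 0.0514 to 0.125.

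Arrays with the same replicate number share only that number: their deviations correlated at -0.26, 0.032 and 0.24 over 198 miRNAs. With the number as a replicate block, 16 miRNAs, 1 arm pair and 69 probes were called, and the adjusted p was 0.0134 for miR-199a-5p, 0.0217 for miR-199a-3p, 0.0172 for miR-214-3p and 0.0499 for the arm ratio.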
